A study of Homo sapiens with 27 samples.

Results

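CXCR4, ACKR3 and CXCL12 form a small system of 2 receptors and their shared ligand, and its messenger RNA was followed in 3 human cancer cell lines under different oxygen supply. All probe sets of the array whose platform annotation names 1 of these genes and no other were taken, which gave 3 of 19775 genes and 8 of 54675 probe sets: 3 for CXCR4, 3 for ACKR3 and 2 for CXCL12. The lines were WM793B, from a melanoma, PC-3, from a cancer of the prostate, and SK-OV-3, from a cancer of the ovary. Each was grown on glass plates for 72 h as control culture at 21% oxygen, under chronic hypoxia at 1% oxygen, or under cycling hypoxia, in which periods of 4 h or 12 h at 1% oxygen alternated with 4 h at 21% oxygen, so that cycling cultures were collected after a period at 21% oxygen. Every combination of line and condition gave 3 arrays, labelled as biological replicates, which makes 27 arrays in all. The lines were kept in different media, so line and medium cannot be told apart, and cultured lines lack the fibroblasts, endothelium and leukocytes of a tumour.

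CXCL12 is a secreted chemokine that draws cells along its gradient. CXCR4 is a G protein-coupled receptor that turns this signal into movement and survival, while ACKR3, an atypical receptor formerly called CXCR7, binds the same ligand, passes its signal through arrestins rather than G proteins and removes CXCL12 from the surroundings. Hypoxia-inducible factors (HIF), which accumulate when oxygen is low, are known to raise CXCR4 transcription in several cell types, and the axis is known for its part in the spread of tumour cells to organs that make CXCL12.

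By RefSeq annotation of GRCh38.p14, CXCR4 lies on chromosome 2 from 136114349 to 136118149, ACKR3 on chromosome 2 from 236537122 to 236582354 and CXCL12 on chromosome 10 from 44370165 to 44385097. The 250 bases before the start of transcription are shown for the receptor with the widest range of values and for the ligand, because both genes had a clear signal in some conditions and values at or near the noise level in others. They come from RefSeq promoter windows (GRCh38.p14), which matched 2 of the 3 genes, and both read 5′ to 3′ along the minus strand, chr2:136118150-136118399 for the first start site of CXCR4 and chr10:44385098-44385347 for CXCL12. Capitals mark GCGTG, a core of the hypoxia response element to which HIF binds.
CXCR4: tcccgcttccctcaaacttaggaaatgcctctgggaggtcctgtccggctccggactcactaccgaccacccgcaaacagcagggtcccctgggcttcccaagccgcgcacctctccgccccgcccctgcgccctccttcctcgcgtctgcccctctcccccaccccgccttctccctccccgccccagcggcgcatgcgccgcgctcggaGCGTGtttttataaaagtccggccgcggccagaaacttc
CXCL12: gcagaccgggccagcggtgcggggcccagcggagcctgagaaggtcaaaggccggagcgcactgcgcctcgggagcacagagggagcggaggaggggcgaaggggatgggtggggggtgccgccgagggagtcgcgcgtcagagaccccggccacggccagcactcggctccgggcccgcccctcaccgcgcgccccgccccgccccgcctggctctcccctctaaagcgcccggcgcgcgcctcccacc
Both strands were searched for ACGTG or GCGTG. In CXCR4 the hypoxia response element core lay 39 to 35 bases before the start. CXCR4 has 3 start sites in the table, and the window of the second held no core while that of the third held 2. The CXCL12 window held none. A core is common: 43.2% of all 35116 windows held 1 or more in these 250 bases. A match describes the letters only.

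The deposited values are log2 signals after GC-RMA, a method that corrects the background of each probe by its sequence and brings the arrays to a common scale. The lowest value in the table was 2.28 on the log2 scale, or 4.84 on the linear scale, and a linear value of 5 (log2 2.32) was taken as the noise level, at or under which a value gives only an upper limit. Between 39.7% and 41.9% of the probe sets of an array were at or under it. Within a group, replicate arrays correlated across probe sets at 0.994 or more, and the number of arrays limits the precision. Each gene was read first by its brightest probe set, 217028_at for CXCR4, 212977_at for ACKR3 and 209687_at for CXCL12. Levels of different probe sets are not compared with each other. Of the prostate lineage genes, HOXB13 had a mean log2 value of 11.04 in PC-3 control cells and fell to 8.80 under chronic and 9.73 under cycling hypoxia, KLK2 was at the noise level, and KLK3 read 4.28 against 4.75 in SK-OV-3 control cells. Of the ovarian lineage genes, PAX8 read 9.48 in SK-OV-3 control cells, MUC16 was at the noise level, and WT1 read 4.00 against 6.80 in WM793B and 5.84 in PC-3 cells. The neural crest genes SOX10 and S100B read 10.43 and 11.32 in WM793B control cells. MITF, also a listed melanocyte marker, did not set this line apart, at 8.38 against 9.26 in SK-OV-3 and 7.66 in PC-3 control cells. The pigment genes PMEL, MLANA and TYR were at the noise level in WM793B control cells.

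In every line limma was fitted to the 9 arrays, with adjustment of p over the 19800 probe sets that deviated at least 1.5-fold from their median in at least 20% of the 27 arrays. A probe set is said to have risen or fallen at an adjusted p under 0.05 and a change of at least 2-fold. All 3 probe sets of CXCR4 and the brightest of ACKR3 passed the filter, while the other 2 of ACKR3 and both of CXCL12 did not. The comparisons of a line share arrays, so they are given side by side and are not independent.

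CXCR4 was at the noise level in every control culture and rose under chronic hypoxia in SK-OV-3 and PC-3 cells. In PC-3 cells the control arrays read 2.28, 2.28 and 2.28 (log2), the arrays of chronic hypoxia 6.98, 7.12 and 6.77, and those of cycling hypoxia 2.58, 3.11 and 2.28. In SK-OV-3 cells the control arrays again read 2.28, 2.28 and 2.28, the arrays of chronic hypoxia 10.38, 10.14 and 10.44, and those of cycling hypoxia 3.75, 3.40 and 3.98. In WM793B cells all 9 arrays read 2.28. The arrays of chronic hypoxia thus stood apart from all others in both responding lines, cycling hypoxia stood apart from control in SK-OV-3 cells, and in PC-3 cells 1 of the 3 arrays of cycling hypoxia was at the noise level with the controls.

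**Figure D1:**
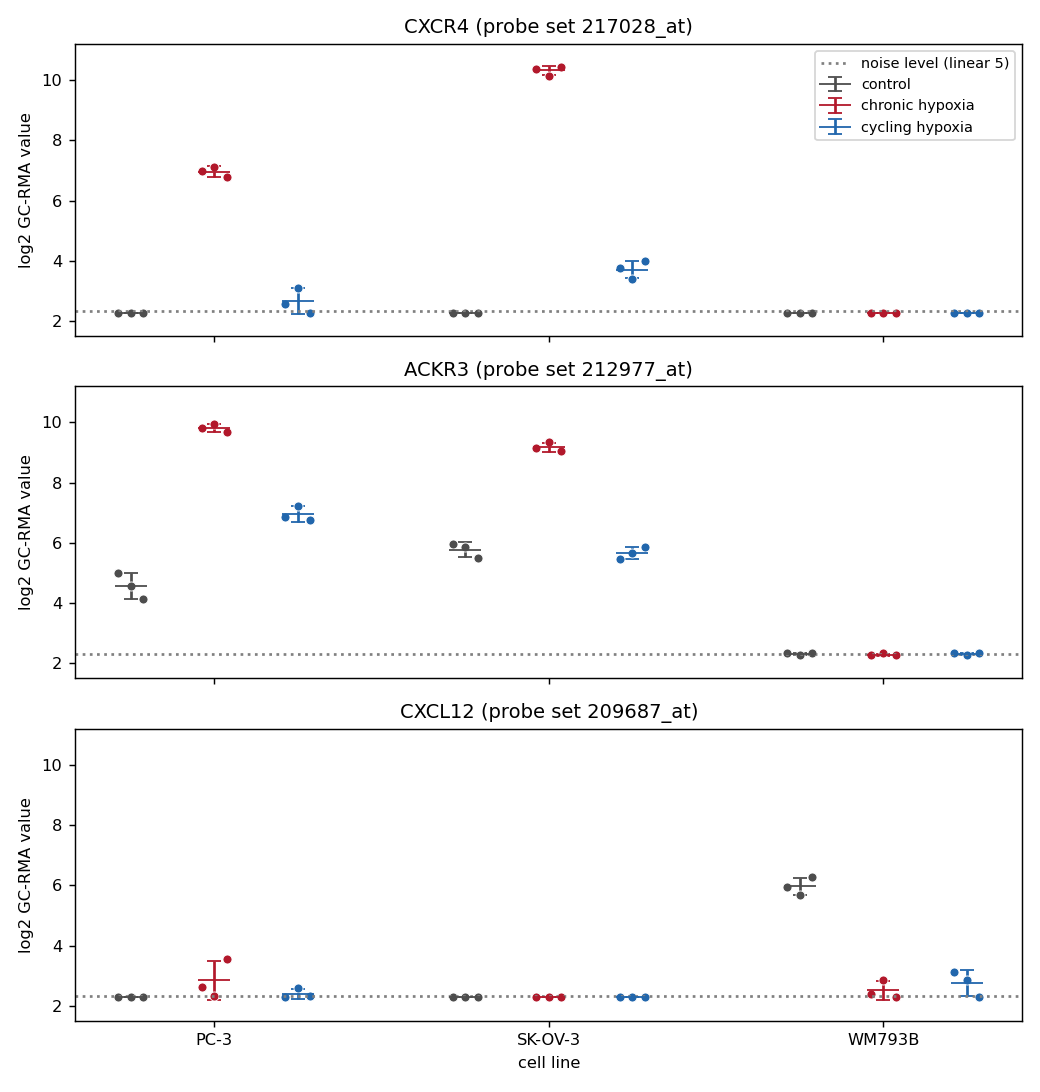
Log2 GC-RMA values of the brightest probe set of each gene, with 1 point per array, a horizontal mark for the mean and bars for the SD (n = 3), by cell line and condition; the dotted line is the noise level. CXCR4 reached 10.44 in SK-OV-3 cells under chronic hypoxia and read 2.28 on every WM793B array, ACKR3 was over the noise level on all PC-3 and SK-OV-3 arrays, and CXCL12 reached 6.26 in WM793B control cells.

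Under chronic hypoxia CXCR4 rose at least 24.8-fold in PC-3 cells (log2 difference 4.68, SE 0.20, limma adjusted p = 2.31e-06), where 9.67% of the 19800 tested probe sets rose. In SK-OV-3 cells the rise was at least 256-fold (log2 difference 8.04, SE 0.15, limma adjusted p = 5.26e-07), where 9.57% rose. These folds are lower limits, because all control arrays were at the noise level. Ordered by measured log2 difference, itself a lower limit here, CXCR4 was 1st from the highest of 19800 probe sets in SK-OV-3 cells and 14th in PC-3 cells. The other probe sets went the same way: 211919_s_at rose at least 4.36-fold in PC-3 and at least 73.7-fold in SK-OV-3 cells, and 209201_x_at, whose suffix marks probes that may also match other transcripts, at least 4.11-fold and at least 62.8-fold. In SK-OV-3 and PC-3 cells alike, 434 of 19800 probe sets rose (2.19%), and the 3 of CXCR4 and the brightest of ACKR3 were among them. However, 211919_s_at and 209201_x_at passed the filter on 6 arrays, the number needed, and these were the arrays of chronic hypoxia in these lines. For 217028_at they were among the 10 that deviated. The filter thus favoured their place in this count, which is no separate support. Without the filter all 3 were called in both lines too.

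Under cycling hypoxia most of this signal was not present. In SK-OV-3 cells CXCR4 rose at least 2.61-fold over control (log2 difference 1.43, SE 0.15, limma adjusted p = 0.000519), in a comparison where 5.83% of probe sets rose. This call rests on 1 of 3 probe sets, since 211919_s_at differed by 0.15 (adjusted p = 0.434) and 209201_x_at was at the noise level in both groups. In PC-3 cells CXCR4 differed from control by 0.38 on the log2 scale (SE 0.20, 95% confidence interval -0.10 to 0.86, limma adjusted p = 0.172), with overlapping arrays, in a comparison where 4.89% of probe sets rose. Cycling cells held 19.7-fold less CXCR4 signal than chronically hypoxic cells in PC-3 (log2 difference -4.30, limma adjusted p = 4.62e-05) and 97.9-fold less in SK-OV-3 (log2 difference -6.61, limma adjusted p = 3.01e-06). In this comparison 3.85% of probe sets were lower in SK-OV-3 and 1.83% in PC-3 cells, and CXCR4 had the lowest log2 difference of all 19800 in both. The PC-3 mean under cycling hypoxia was near the noise level, with 1 array at it, so the 19.7-fold may understate the difference there. Since these are bulk cultures, fewer cells with the transcript and less of it per cell cannot be told apart.

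Markers of other cell types were read beside this result. None of 8 leukocyte markers, PTPRC among them, was over the noise level on all 3 arrays of any PC-3 or SK-OV-3 group, and their summed linear signal ran from 38.7 to 40.5 in these lines. Of 8 fibroblast markers, DCN was at the noise level in all SK-OV-3 groups, yet the summed linear signal of the list moved with the condition there, from 286 to 327 in control, 2640 to 3810 under chronic and 1030 to 1490 under cycling hypoxia. The collagen gene COL1A1 rose by 3.52 on the log2 scale under chronic and by 2.23 under cycling hypoxia, and the matrix proteoglycan gene LUM by 3.74 and 2.23. These were the 2 of 7 tested markers that rose, and the sum follows them. The list as a whole did not rise, with a median of 0.00 under chronic hypoxia, where 9.57% of all tested probe sets rose. In PC-3 cells the same sum ran from 557 to 609, 1060 to 1210 and 810 to 935. There 1 of 7 tested markers rose and 1, PDGFRA (5.31 to 3.86 on the log2 scale), fell under chronic hypoxia, where 9.67% and 12.8% of probe sets did. All 6 epithelial markers were over the noise level on every PC-3 and SK-OV-3 array, and their summed signal was 9140 to 9890, 17400 to 19100 and 15500 to 16600 in SK-OV-3 cells. Of 5 endothelial markers 1 or 2 were over noise on all 3 arrays of a group, with a summed signal of 28.6 to 32.9 in SK-OV-3 and 129 to 222 in PC-3 cells. The part of these genes in the CXCR4 result was not tested.

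**Figure D2:**
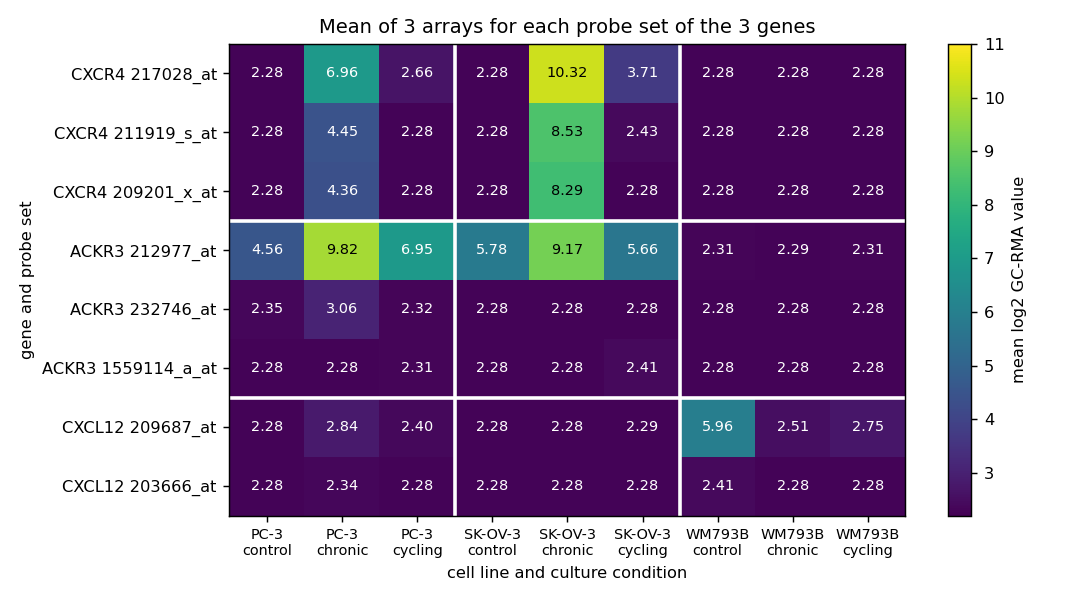
Mean log2 GC-RMA value (n = 3 arrays) of each of the 8 probe sets, in rows by gene, for the 9 combinations of cell line and condition in columns; the colour bar gives the same scale. The 3 CXCR4 probe sets are bright in the same groups, while ACKR3 and CXCL12 are each read by 1 bright probe set, and 1559114_a_at and 203666_at stay at 2.41 or below.

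ACKR3 was expressed in control SK-OV-3 and PC-3 cells and rose in both under chronic hypoxia, and it rose under cycling hypoxia in PC-3 cells. In PC-3 cells the arrays read 4.99, 4.56 and 4.13 (log2) in control, 9.81, 9.96 and 9.68 under chronic and 6.85, 7.24 and 6.75 under cycling hypoxia, without overlap between the conditions. In SK-OV-3 cells they read 5.98, 5.86 and 5.51 in control, 9.14, 9.34 and 9.04 under chronic and 5.45, 5.66 and 5.87 under cycling hypoxia, so that cycling and control arrays overlapped. In WM793B cells all 9 arrays lay between 2.28 and 2.33, at or next to the noise level.

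In PC-3 cells ACKR3 rose 38.2-fold under chronic hypoxia (log2 difference 5.25, SE 0.23, limma adjusted p = 2.4e-06) and 5.22-fold under cycling hypoxia (log2 difference 2.38, SE 0.23, limma adjusted p = 2e-04). It was 7.31-fold lower under cycling than under chronic hypoxia (log2 difference -2.87, limma adjusted p = 0.000203). In SK-OV-3 cells it rose 10.5-fold under chronic hypoxia (log2 difference 3.39, SE 0.16, limma adjusted p = 8.36e-06) and was 11.4-fold lower under cycling than under chronic hypoxia (log2 difference -3.51, limma adjusted p = 3.49e-05). Cycling hypoxia and control differed there by -0.12 (SE 0.16, 95% confidence interval -0.49 to 0.25, limma adjusted p = 0.626), an interval within 2-fold. By log2 difference under chronic hypoxia ACKR3 was 113th from the highest of 19800 in SK-OV-3 and 7th in PC-3 cells. Of its dimmer probe sets, 232746_at read 3.41, 3.25 and 2.52 under chronic hypoxia in PC-3 cells against 2.28, 2.49 and 2.28 in control (log2 difference 0.72, adjusted p = 0.0649 over all 54675 probe sets), and 1559114_a_at was over the noise level on 2 of 27 arrays, at 2.37 and 2.68.

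**Figure D3:**
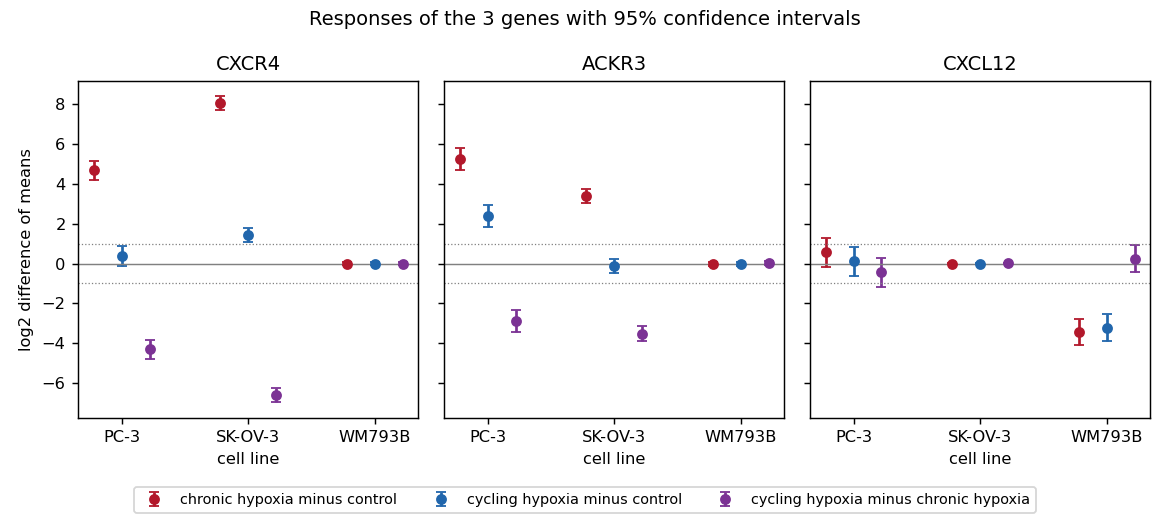
Log2 differences between the condition means (n = 3 arrays each) in each cell line with 95% confidence intervals from limma, for the brightest probe set of each gene; dotted lines mark a 2-fold change. CXCL12 intervals come from the fit of all 54675 probe sets, and differences of groups at the noise level are lower limits in size.

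CXCL12 behaved in the opposite way and in the other line: it was over the noise level in WM793B control cells and lower in both hypoxic cultures. The control arrays read 5.94, 5.68 and 6.26 (log2), the arrays of chronic hypoxia 2.39, 2.86 and 2.29, and those of cycling hypoxia 3.13, 2.85 and 2.28. Control did not overlap with either form of hypoxia, and 1 array of each hypoxic group was at the noise level. The gene deviated from its median on 5 arrays where the filter asks for 6, so it was tested with all 54675 probe sets in place of the filtered ones. In this fit CXCL12 fell 10.9-fold by the measured means under chronic hypoxia (log2 difference -3.45, SE 0.28, limma adjusted p = 0.000984), where 2.49% of probe sets fell, and 9.24-fold under cycling hypoxia (log2 difference -3.21, SE 0.28, limma adjusted p = 0.00457), where 0.485% fell. Both hypoxic means were near the noise level, so these folds may understate the decrease. Cycling and chronic hypoxia differed by 0.24 (95% confidence interval -0.42 to 0.91, limma adjusted p = 0.844). The second probe set, 203666_at, was at 2.66 on 1 control array and at the noise level on the other 8 WM793B arrays.

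In PC-3 cells CXCL12 read 2.28, 2.28 and 2.28 in control, 2.63, 2.32 and 3.56 under chronic and 2.30, 2.58 and 2.32 under cycling hypoxia, near the noise level apart from 1 array of chronic hypoxia. The difference between chronic hypoxia and control was 0.56 (95% confidence interval -0.17 to 1.29, limma adjusted p = 0.301). In SK-OV-3 cells all 9 arrays lay between 2.28 and 2.30. The ligand was thus measured over noise in the line in which both receptors were at or next to it, and the receptors in lines in which the ligand was at or near the noise level. Of 6 melanocyte markers read in WM793B cells, 3 were over noise on all arrays of each group, and their summed linear signal was 3930 to 4770 in control, 2510 to 3110 under chronic and 3190 to 3780 under cycling hypoxia. Of the 3 tested, 1 fell under chronic hypoxia, S100B (11.32 to 10.14 on the log2 scale), where 7.28% of the filtered probe sets fell. The 8 fibroblast markers gave summed linear signals of 1910 to 2120 in WM793B control, 1530 to 2280 under chronic and 1940 to 2350 under cycling hypoxia, ranges that overlapped. Of the 7 tested, 2 fell under chronic hypoxia, PDGFRA (8.75 to 7.17 on the log2 scale) and THY1 (6.52 to 5.06), again beside 7.28% of the filtered probe sets. The part of these markers in the CXCL12 result was not tested.

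The responses were then compared between the lines in a fit of all 27 arrays. For chronic hypoxia both receptors differed between the lines (limma F-test with 2 degrees of freedom, adjusted p = 8.23e-17 for CXCR4 and 2.56e-13 for ACKR3), as did 67.6% of all tested probe sets. For CXCR4 the measured difference of SK-OV-3 minus PC-3 cells was 3.37 on the log2 scale (SE 0.22, adjusted p = 3.44e-11), but with both controls at the noise level it is the difference of the 2 levels under chronic hypoxia, and the responses themselves could not be ranked. The ACKR3 response, measured over noise on both sides, was smaller in SK-OV-3 than in PC-3 cells by a log2 difference of -1.87 (SE 0.24, adjusted p = 9.35e-07). For cycling hypoxia both again differed (adjusted p = 4e-05 for CXCR4 and 2.19e-08 for ACKR3), as did 48.2% of probe sets. For CXCR4, whose controls were at the noise level, SK-OV-3 minus PC-3 cells gave 1.05 with 217028_at (adjusted p = 0.000619), 0.15 with 211919_s_at (adjusted p = 0.484) and 0.01 with 209201_x_at. The ACKR3 response of SK-OV-3 cells differed from that of PC-3 cells by -2.51 (adjusted p = 4.55e-08), and the responses of WM793B and SK-OV-3 cells, the former at or next to the noise level, were not separated (0.12, adjusted p = 0.75). CXCL12, among all 54675 probe sets, differed under chronic (adjusted p = 3.67e-08, 30.6% called) and cycling hypoxia (adjusted p = 6.27e-07, 19.8% called).

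Ordered by mean level, CXCR4 was highest in SK-OV-3 cells under chronic hypoxia (10.32 ± 0.16, log2, SD, n = 3), followed by PC-3 cells under chronic (6.96 ± 0.18), SK-OV-3 cells under cycling (3.71 ± 0.29) and PC-3 cells under cycling hypoxia (2.66 ± 0.42), and 1 array of the last of these was at the noise level, where the 5 remaining groups lay. ACKR3 was highest in PC-3 (9.82 ± 0.14) and then SK-OV-3 cells (9.17 ± 0.15) under chronic hypoxia, followed by PC-3 cells under cycling hypoxia (6.95 ± 0.26). SK-OV-3 control (5.78 ± 0.24) and cycling hypoxia (5.66 ± 0.21) overlapped, and PC-3 control (4.56 ± 0.43) and the 3 WM793B groups came last. CXCL12 was highest in WM793B control (5.96 ± 0.29), and the arrays of the neighbouring groups after it, from PC-3 cells under chronic hypoxia (2.84 ± 0.64) downwards, overlapped with each other.

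The genes most like each of the 3 were sought by Pearson's r of the 9 group means over 9160 genes, as a description. The points share lines and conditions. For CXCR4 these were THEMIS2, a signalling protein of immune cells (r = 0.955), the tyrosine phosphatase gene PTPRR (0.909), FAM83A (0.905), the glucose transporter gene SLC2A1 (0.880) and CAPN12 (0.879). For ACKR3 they were the pro-apoptotic BIK (0.971), the growth factor receptor gene EGFR (0.962), ADM (0.960), GSDMB (0.959) and the neurotrophic factor gene ARTN (0.949). For CXCL12 they were the guidance factor gene SLIT1 (0.959), CRISPLD2 (0.956), TNIP3 (0.942), CCDST (0.941) and PPP4R4 (0.934). Every CXCL12 mean but that of WM793B control (5.96) lay between 2.28 and 2.84, so its r rests largely on this group. CXCR4 was at the noise level in all control and all WM793B groups, so its r rests on few groups too. THEMIS2 means ran from 2.74 to 4.43, against 2.28 to 10.32 for CXCR4.

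**Figure D4:**
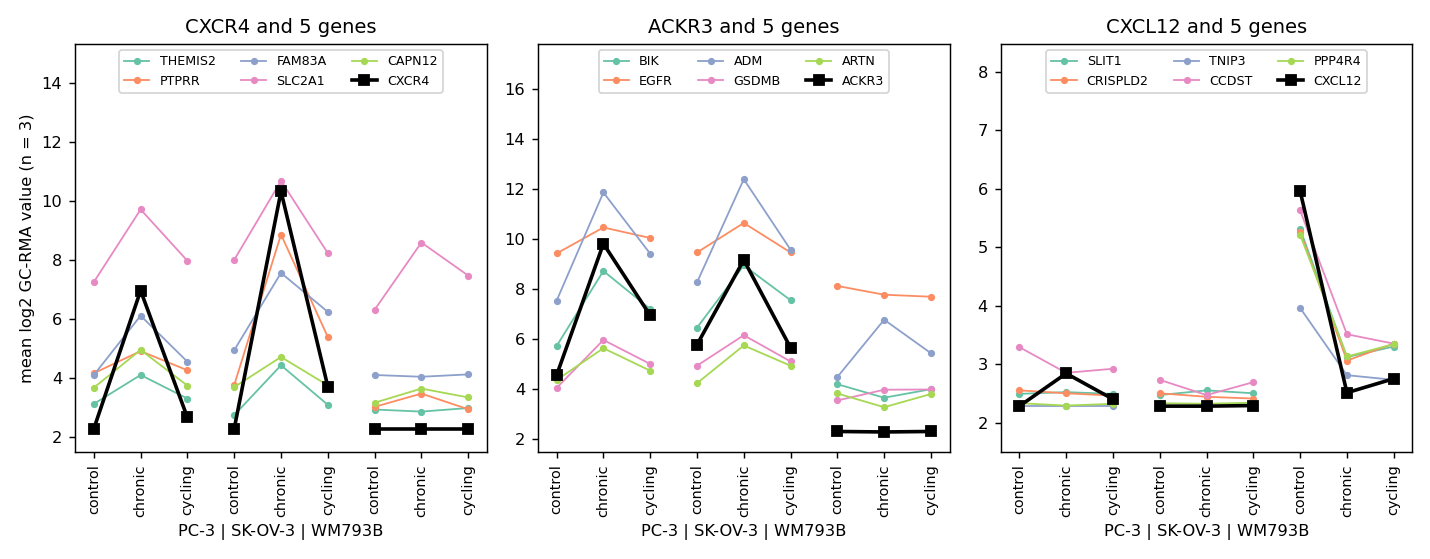
Mean log2 GC-RMA values (n = 3 arrays) of CXCR4, ACKR3 and CXCL12 (black squares) and of the 5 genes with the most similar means (coloured circles), with control, chronic and cycling hypoxia in order for PC-3, SK-OV-3 and WM793B cells; the vertical scales differ between panels. The genes beside CXCR4 and ACKR3 peak under chronic hypoxia in SK-OV-3 and PC-3 cells, and those beside CXCL12 are highest in WM793B control cells. In WM793B cells some genes beside the receptors, such as SLC2A1 and ADM, are also higher under chronic hypoxia than in control, and others, such as BIK and EGFR, are lower.

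A short list of established HIF targets was read beside the 3 genes. Of 9 genes listed 8 were read and 7 tested, and all 7 rose under chronic hypoxia in each line, with median log2 differences of 2.29 (WM793B), 2.47 (PC-3) and 2.68 (SK-OV-3) against -0.01, -0.03 and 0.00 over all tested probe sets. In WM793B cells, where 5.63% of probe sets rose, CXCR4 and ACKR3 were at the noise level while these genes rose. Under cycling hypoxia 3 rose in WM793B, 5 in SK-OV-3 and 5 in PC-3 cells. Their medians were 0.94, 1.21 and 1.25 against 0.00, 0.01 and 0.00. Of all tested probe sets 1.42% rose in WM793B, 5.83% in SK-OV-3 and 4.89% in PC-3 cells. In SK-OV-3 cells ANKRD37 rose by 1.01 and NDRG1 by 1.26 under cycling hypoxia, while SLC2A1 and VEGFA, which were not called, differed by 0.23 and 0.35. These genes are examples and not the largest changes of the list, whose median there was 1.21.

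Among 11 other ligands of the axis and enzymes that cut CXCL12, 5 were tested. ADM, which encodes adrenomedullin, a peptide that ACKR3 also binds and itself 1 of the listed HIF targets, rose under chronic hypoxia in PC-3 (log2 difference 4.33), SK-OV-3 (4.13) and WM793B cells (2.29), and under cycling hypoxia in SK-OV-3 (1.30) and PC-3 cells (1.88). MMP2, a gelatinase that cleaves CXCL12, rose in SK-OV-3 cells under chronic (3.28) and cycling hypoxia (2.39). The list median under chronic hypoxia was 0.18 (WM793B), -0.03 (PC-3) and 0.84 (SK-OV-3).

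Of 21 other chemokine receptors 19 were read, 6 were at the noise level on all 27 arrays, and 3 were tested. Their median log2 difference under chronic hypoxia was 0.03 (WM793B), 0.00 (PC-3) and 0.00 (SK-OV-3). CCRL2, an atypical receptor that presents chemerin, fell in PC-3 cells (log2 difference -2.39, limma adjusted p = 0.000146), in a comparison where 12.8% of probe sets fell, and was higher under cycling than under chronic hypoxia there (1.80, adjusted p = 0.00183), where 3.06% were higher. ACKR4, a scavenger of other chemokines, fell in WM793B cells under chronic hypoxia (log2 difference -1.13, limma adjusted p = 0.00191), where 7.28% of the filtered probe sets fell.

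Downstream of the receptors, 14 of 24 listed genes for G proteins and effectors were tested. Under chronic hypoxia none rose and 1 fell in PC-3 cells (9.67% and 12.8% of all tested probe sets), 3 rose and none fell in SK-OV-3 cells (9.57% and 6.16%), and none was called in WM793B cells (5.63% and 7.28%), with medians of 0.18 (SK-OV-3), -0.03 (PC-3) and -0.04 (WM793B). GNG2, a gamma subunit of G proteins, fell in PC-3 (log2 difference -1.33) and rose in SK-OV-3 cells (1.42). GNAI2, an inhibitory alpha subunit through which CXCR4 signals, rose by 1.01 and the focal adhesion gene PXN by 1.04 in SK-OV-3 cells. The kinase gene JAK2 rose (1.25) and GNG2 and GNAQ fell (-1.10 and -1.07) under cycling hypoxia in PC-3 cells, where 3.60% of probe sets fell, and PXN rose in SK-OV-3 cells (1.07).

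Of 16 arrestins, receptor kinases and sorting genes 10 were tested, with medians under chronic hypoxia of -0.21 (SK-OV-3), 0.03 (PC-3) and -0.03 (WM793B). RGS2, which shortens G protein signalling, rose under chronic hypoxia in SK-OV-3 (log2 difference 2.10) and WM793B cells (1.74), and GRK5, a kinase that marks receptors for arrestin, rose in SK-OV-3 cells (1.69). RGS16, of the same family as RGS2, fell in SK-OV-3 (-1.09, to the noise level) and WM793B cells (-1.62), where 6.16% and 7.28% of probe sets fell. ITCH, the ubiquitin ligase that sends CXCR4 to the lysosome, rose in PC-3 (1.31) and WM793B cells (1.19). Under cycling hypoxia 1 gene of this list was called, RGS2, which rose in SK-OV-3 cells (1.31), where 5.83% of all tested probe sets rose. In PC-3 and WM793B cells, where none of the list rose, 4.89% and 1.42% did.

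Of 9 transcription regulators 6 were tested. HIF1A fell under chronic hypoxia in PC-3 (log2 difference -1.15) and SK-OV-3 cells (-1.12), where 12.8% and 6.16% of all tested probe sets fell. EPAS1, which encodes HIF-2α, rose in PC-3 cells under chronic (1.16) and cycling hypoxia (1.04) and in WM793B cells under chronic hypoxia (1.01). In these comparisons 9.67%, 4.89% and 5.63% of probe sets rose. Over these 6 genes the median log2 difference under chronic hypoxia was 0.47 (WM793B), -0.20 (PC-3) and -0.10 (SK-OV-3).

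**Figure D5:**
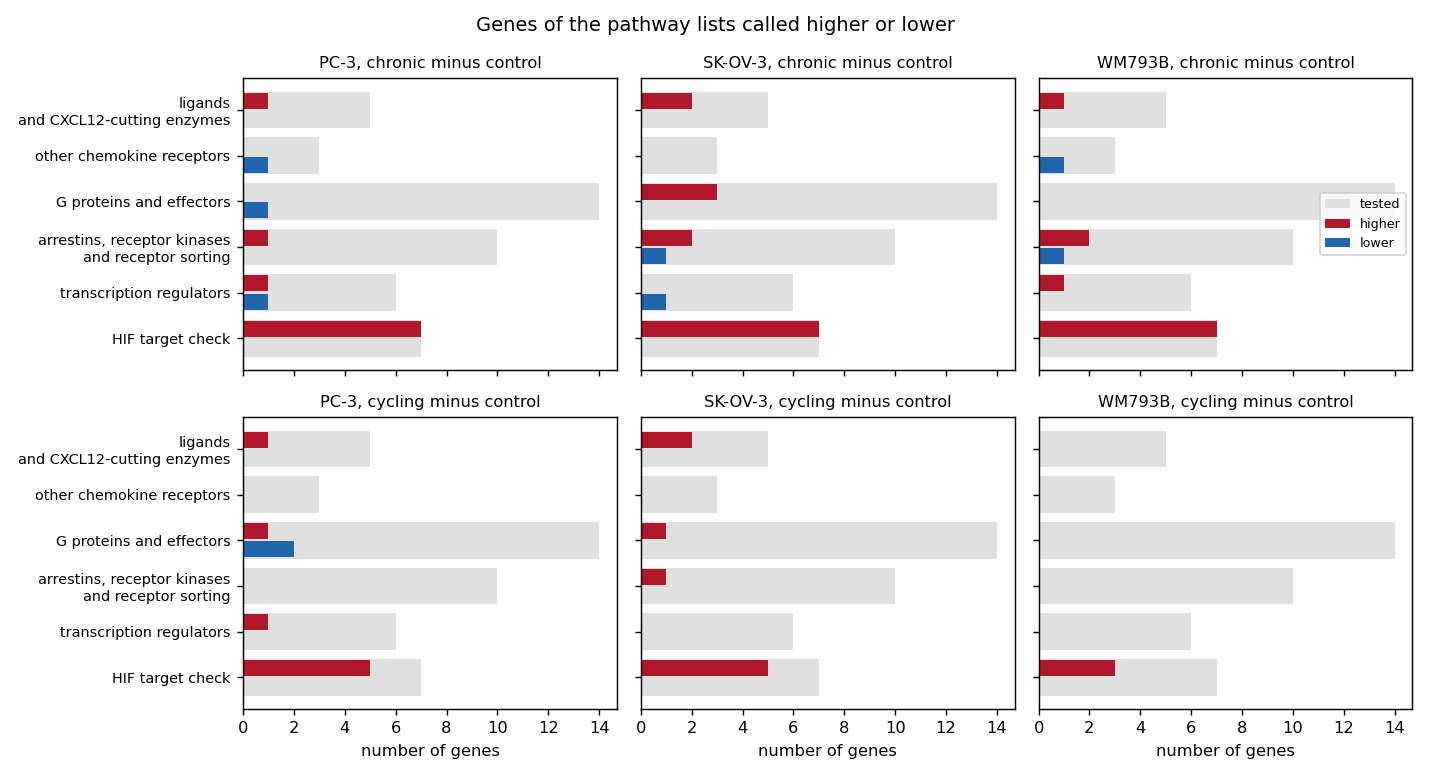
Number of genes called higher (red) or lower (blue) than control among those tested (grey) in each pathway list, for chronic hypoxia in the upper and cycling hypoxia in the lower row and for the 3 cell lines in columns. All 7 tested HIF targets rose under chronic hypoxia in each line, while the signalling lists held at most 3 genes called higher in a comparison.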

How the data were processed

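Human Genome U133 Plus 2.0 arrays of 27 cultures were used. The authors processed them with GC-RMA and deposited log2 values per probe set, which were used as deposited; every value column was assigned to a sample. Probe sets were named by the platform annotation: 41097 carried 1 gene symbol, 1801 several and 11777 none. The genes and gene lists were chosen with earlier results of these data known. In each line limma 3.58.1 in R 4.3.3 was fitted to 3 conditions over 9 arrays, and response differences between lines to 9 groups over 27 arrays, with Benjamini-Hochberg adjustment over 19800 filtered probe sets. The study used a random variance model, for which limma stands in. Where all arrays of a group were at or under linear 5, folds are lower limits against the higher of that level and the value. List genes were read by their brightest probe set, and at most 4 called genes with the largest change were named per list and comparison. The HIF targets named for SK-OV-3 cells under cycling hypoxia are an exception. For each of the 3 genes, the 5 with the highest Pearson's r were named. The fits were tested on simulated data. Alternatives were no filter, a filter on dim probe sets, a raised floor, renormalization, centring, a replicate block, other sets of arrays, a trended robust prior, other probe sets and leaving out each array. The p values measure the spread between cultures of the same line and condition, shared over the conditions of a line or, in the fit of 27 arrays, over all lines. Groups at the floor show almost no spread because of the floor. They enter this shared spread, so SE and p, above all of CXCR4, may understate the spread between cultures. Positions of probe sets were not analysed here.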

Additional observations from a re-analysis of the deposited data

Results flagged for a closer look

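The response of both receptors differed between the cell lines by a test of the difference itself. Between the most and the least responding line, the log2 response to chronic hypoxia spanned 8.04 for CXCR4 (limma F-test, adjusted p = 8.23e-17) and 5.27 for ACKR3 (adjusted p = 2.56e-13). The response to cycling hypoxia spanned 1.43 for CXCR4 (adjusted p = 4e-05) and 2.51 for ACKR3 (adjusted p = 2.19e-08). These values are those of the brightest probe sets. For CXCR4, 211919_s_at spanned 0.15 under cycling hypoxia (limma F-test, adjusted p = 0.61) and 209201_x_at 0.01 (adjusted p = 0.999). Both were at or near the noise level in control and cycling hypoxia, so they cannot decide the question. The CXCR4 difference for cycling hypoxia thus rests on its brightest probe set. CXCR4 was at the noise level in all controls and on all WM793B arrays, and ACKR3 at or next to it in WM793B cells, so the floor limits these spans. Groups at the floor also show almost no spread, so these p values may be too small. Such differences were common, at 67.6% of tested probe sets for chronic and 48.2% for cycling hypoxia. Groups had 3 arrays each, so single arrays were not tested for standing apart.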

How the results depend on the processing

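Of 245 values recomputed for 27 results under other settings, 230 changed no call, and neither did any of 288 values with 1 array left out. CXCL12 had no p with 1 array left out or under any alternative that kept the variation filter. Its values there are counted as unchanged, although no call on them could change. Values that were not called could change sign, as ACKR3 did in WM793B cells under cycling hypoxia (-0.02 to 0.02 with 1 array left out) and with 1559114_a_at in SK-OV-3 cells (0.14 against -0.12). The exceptions were other probe sets and the filter. For ACKR3 in PC-3 cells, 232746_at gave 0.72 for chronic hypoxia, -0.03 for cycling hypoxia and -0.75 for cycling against chronic hypoxia, and 1559114_a_at gave 0.03 for cycling hypoxia and 0.03 for cycling against chronic hypoxia; in SK-OV-3 cells 1559114_a_at gave 0.14 for cycling against chronic hypoxia. These probe sets were at or near the noise level. For CXCR4 in SK-OV-3 cells 211919_s_at gave 0.15 for cycling hypoxia. CXCL12, which the variation filter removes, was called without it and with a filter on dim probe sets: -3.45 for chronic (adjusted p = 0.000984 and 0.000211) and -3.21 for cycling hypoxia in WM793B cells (0.00457 and 0.00126), and 4.00 and 3.33 for the differences between lines (3.67e-08 and 5.2e-09, 6.27e-07 and 1.14e-07). The CXCR4 value for cycling hypoxia in PC-3 cells ran from 0.15 without replicate 2 to 0.57 without replicate 3 of cycling hypoxia, with adjusted p from 0.0408 to 0.396, and never reached 2-fold. Same-numbered deviations correlated from -0.053 to 0.151 in PC-3 cells, and those with different numbers from -0.155 to 0.088. In SK-OV-3 cells these ranges were -0.092 to 0.164 and -0.131 to 0.139. In WM793B cells both ends lay higher for the same number, at -0.024 to 0.287 against -0.229 to 0.144. Whether the numbers mark paired cultures was not tested. With the replicate number as a block, CXCR4 in SK-OV-3 cells kept 8.04 (adjusted p = 7.11e-05) and no call on CXCR4 or ACKR3 changed. CXCL12, which the filter removes and which was called in WM793B cells, was not tested with the block. When arrays were quantile-normalized again, PC-3 probe sets higher and lower under cycling than chronic hypoxia went from 605 and 363 to 415 and 464. No alternative was computed for comparisons with both groups at the noise level, for CXCR4 in WM793B and CXCL12 in SK-OV-3 cells. Values at the floor limit the data: no decrease can be seen there, and absence of the transcript was not shown.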
